A study of Mus musculus with 26 samples.

Results

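The comparison described here sets the response of cells with synthetic IL-22 receptors to a GFP-mCherry fusion protein against the response of cells with natural IL-22 receptors to IL-22 itself. It is an interaction contrast on log2 intensity, in which the change from untreated to IL-22-treated cells was subtracted from the change from untreated to GFP-mCherry-treated cells. A positive difference means that the GFP-mCherry response lay above the IL-22 response, whether because a gene rose more or fell less, and a negative difference means that it lay below. The contrast used 20 of the 26 arrays of the series, chosen by their labelled receptor and treatment and not by any measured value. All arrays measured RNA of Ba/F3/gp130 cells, a mouse pro-B cell line that grows on interleukin-3 or on the designer cytokine Hyper-IL-6, since added gp130 lets it read IL-6-type signals.

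Natural receptor cells carried the chains IL-10R2 and IL-22Rα1 and were left untreated (n = 4) or were given IL-22 at 100 ng/ml (n = 4). Synthetic receptor cells carried mCherryVHHIL-10R2 and GFPVHHIL-22Rα1, in which a nanobody against mCherry or GFP sits on the outer side of the chain. They were left untreated (n = 6) or were given GFP-mCherry at 100 ng/ml (n = 6), a fusion that both nanobodies can hold at once. All cells, untreated ones included, had been washed free of cytokine and starved without serum before treatment, and stimulation lasted 2 h. The remaining 6 arrays, from synthetic receptor cells given mCherry-Fc, only added to the estimate of the spread between arrays. Each receptor pair is represented by a single transfected line whose clonality the labels do not give, ligand and line changed together, and no group received an inert protein, so the effects of line, receptor and ligand on the contrast cannot be told apart. The labels do not say whether replicates were separate cultures, so p-values measure the spread between these samples, which may be technical.

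IL-22 joins IL-22Rα1 and IL-10R2, whose associated kinases JAK1 and TYK2 phosphorylate STAT3 and, to a lesser degree, other STAT proteins. STAT3 then raises transcription of its own inhibitor SOCS3 and of many acute phase and cytokine receptor genes, and SOCS3 binds receptor chains and blocks the kinases. NF-kB is a separate inflammatory pathway in which IkBα, encoded by Nfkbia, holds the transcription factor in the cytoplasm, is destroyed on stimulation and is then made again as an early NF-kB target. In Ba/F3 cells, growth after starvation depends on STAT5, PIM kinases, MYC and ERK signalling downstream of whichever cytokine receptor is engaged.

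The cells and arrays were checked first. Of 12 pro-B markers, 11 were measured, and they were uneven. By group mean log2 intensity, the B cell receptor genes Cd79a and Cd79b stood at 9.33 to 9.72 and 8.80 to 9.08, and Ptprc, which all leukocytes share, was highest at 10.58 to 10.82. The B cell factors Pax5 (5.30 to 5.55) and Ebf1 (4.58 to 4.76) and the surrogate light chain gene Vpreb1 (5.13 to 5.34) were near the dim end of the arrays. The median pro-B marker, at 6.19 to 6.44, was thus close to the median T cell marker, at 6.11 to 6.21, although the 5 measured T cell markers reached at most 6.33. The 4 epithelial markers ran from Epcam at 5.05 to 5.10 up to Krt8 at 7.19 to 7.41. Of 5 erythroid markers only Klf1 and Epor were measured, and they stood between 7.23 and 8.92. The myeloid integrin gene Itgam stood at 10.34 in untreated and 9.66 in IL-22-treated natural receptor cells and at 5.59 and 5.48 in untreated and GFP-mCherry-treated synthetic receptor cells. Among the chains themselves, Il22ra1 stood at 12.31 in untreated natural and 6.32 in untreated synthetic receptor cells, and Il10rb at 11.95 and 10.05. How the probes match the transfected constructs is not given in the sources used here. Neither gene's response was called different between the systems, with differences of 0.01 for Il22ra1 (adjusted p = 0.949) and 0.21 for Il10rb (adjusted p = 0.259) in limma's test. A second, dimmer Il22ra1 probe set gave -0.38. Il10rb did pass the same test on arrays with low replicate numbers alone, described below (0.37, adjusted p = 0.00636).

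IL-22 replicate 5 stood apart from the other 3 IL-22 arrays, and held 22 of the 40 single-array values among the named genes that lay far from their group. It is also the only IL-22 array with a high replicate number, whereas untreated natural replicates 4 and 5 both have one. An effect of the number range would thus not cancel in the IL-22 response. Low numbers (natural 1 to 3, synthetic 7 to 11) and high numbers (natural 4 and 5, synthetic 12 to 15) differ across the data, so the overall counts, the list counts and the named genes' differences were recomputed on the arrays of each range alone. The labels do not say what the numbers stand for. Without IL-22 replicate 5 the number of genes called rose from 2718 to 3438, and no gene called in both fits changed sign.

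Of 19938 genes, 2718 (13.6%) differed between the GFP-mCherry and IL-22 responses at an adjusted p below 0.05 (limma, Benjamini-Hochberg over all genes). The difference was positive for 1840 genes (9.23%) and negative for 878 (4.40%), so 67.7% of calls were positive. That split depended on scaling. It was 54.7% positive after another quantile normalization and 75.9% after centring each array on its median. Differences of at least 2-fold were far fewer and ran the other way, with 58 genes above (0.291%) and 135 below (0.677%). The median difference over all genes was -0.016. In the separate responses of the same model, GFP-mCherry raised 2839 genes (14.2%) and lowered 2344 (11.8%), and IL-22 raised 1075 (5.39%) and lowered 1202 (6.03%).

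Most genes with a called negative difference had an IL-22 rise that was smaller or absent with GFP-mCherry. Of the 878, IL-22 raised 370 that GFP-mCherry did not change detectably, 121 that GFP-mCherry also raised and 48 that GFP-mCherry lowered. Another 277 fell with GFP-mCherry without a called IL-22 change. Among the 1840 positive differences, 1006 genes rose with GFP-mCherry without a called IL-22 change, 444 fell with IL-22 without a called GFP-mCherry change, and 192 rose with GFP-mCherry while falling with IL-22. Among the 135 genes at least 2-fold below, 77 rose with IL-22 alone among the calls, 41 rose in both systems and 16 rose with IL-22 and fell with GFP-mCherry. Among the 58 at least 2-fold above, 24 rose with GFP-mCherry and fell with IL-22, 18 rose with GFP-mCherry alone among the calls, 10 fell with IL-22 alone among the calls and 3 rose in both. Across the 19938 genes the 2 responses correlated with Pearson's r = 0.247 and Spearman's rho = 0.126. Genes are not independent replicates, and the 2 responses share no array but share chip type and processing.

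**Figure D1:**
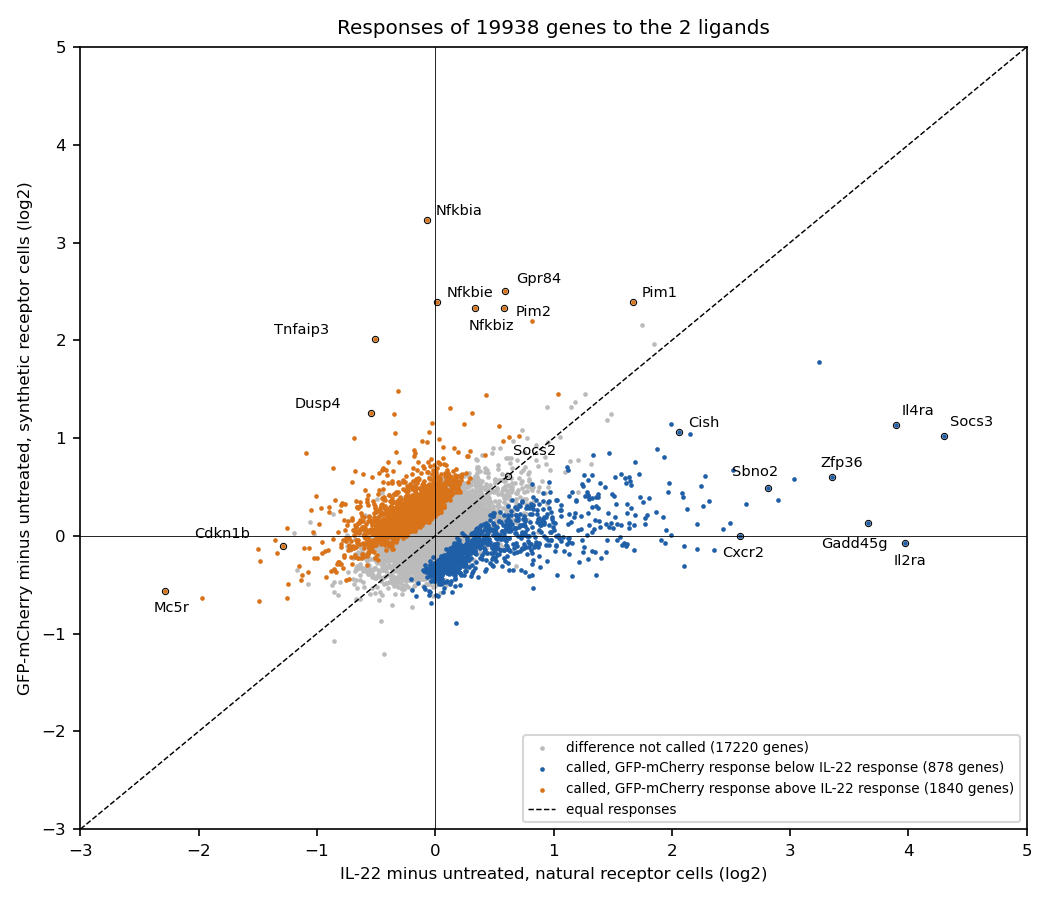
Each point is a gene, with its IL-22 response in natural receptor cells (horizontal axis, log2) and its GFP-mCherry response in synthetic receptor cells (vertical axis, log2). Blue points are the 878 genes with a called difference below 0 and orange points the 1840 above, and the dashed line marks equal responses. Socs3, Il2ra and Il4ra sit far to the right with IL-22 responses of 4.30, 3.98 and 3.89, and Nfkbia sits at the top with a GFP-mCherry response of 3.23.

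Genes of the STAT pathway were among the furthest below 0. Socs3, the feedback inhibitor of STAT3 signalling, stood at 7.59, 7.38, 7.78 and 7.36 on the untreated natural receptor arrays and at 11.77, 11.92, 11.81 and 11.82 with IL-22 (log2 intensity). In synthetic receptor cells it ran from 7.21 to 7.66 untreated (median 7.43, n = 6) and from 8.32 to 8.61 with GFP-mCherry (median 8.44, n = 6). Treated and untreated arrays did not overlap in either line, and the IL-22 arrays lay far above all others. Socs3 thus rose by 4.30 with IL-22 and by 1.02 with GFP-mCherry, a difference of -3.28 (SE 0.11, 9.69-fold, adjusted p = 8.96e-18). A second Socs3 probe set gave -3.05.

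The largest single difference belonged to Il2ra, the alpha chain of the IL-2 receptor. It stood at 5.75, 5.71, 6.11 and 6.25 untreated and at 10.09, 10.15, 10.31 and 9.17 with IL-22. In synthetic receptor cells it lay between 4.53 and 4.85 untreated (median 4.65) and between 4.47 and 4.70 with GFP-mCherry (median 4.60), so that those groups overlapped. These synthetic levels were near the dim end of the arrays and below every untreated natural array. The difference was -4.05 (SE 0.20, 16.6-fold, adjusted p = 1.52e-14), and the GFP-mCherry change of -0.07 did not pass the test.

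Gadd45g, a growth arrest and stress gene, followed with -3.53 (SE 0.15, adjusted p = 4.56e-16). Its untreated natural values of 8.20, 8.04, 8.34 and 8.52 rose to 12.08, 12.03, 12.06 and 11.59 with IL-22. Synthetic receptor arrays spanned 8.05 to 8.41 untreated (median 8.18) and 8.13 to 8.63 with GFP-mCherry (median 8.27), again overlapping. Il4ra, the IL-4 receptor chain, rose in both lines, by 3.89 with IL-22 and by 1.13 with GFP-mCherry, a difference of -2.76 (SE 0.11, adjusted p = 1.22e-16). Its IL-22 arrays held 12.81, 12.82, 12.89 and 12.34, and its GFP-mCherry arrays 9.60 to 9.71 (median 9.67), with no overlap.

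**Figure D2:**
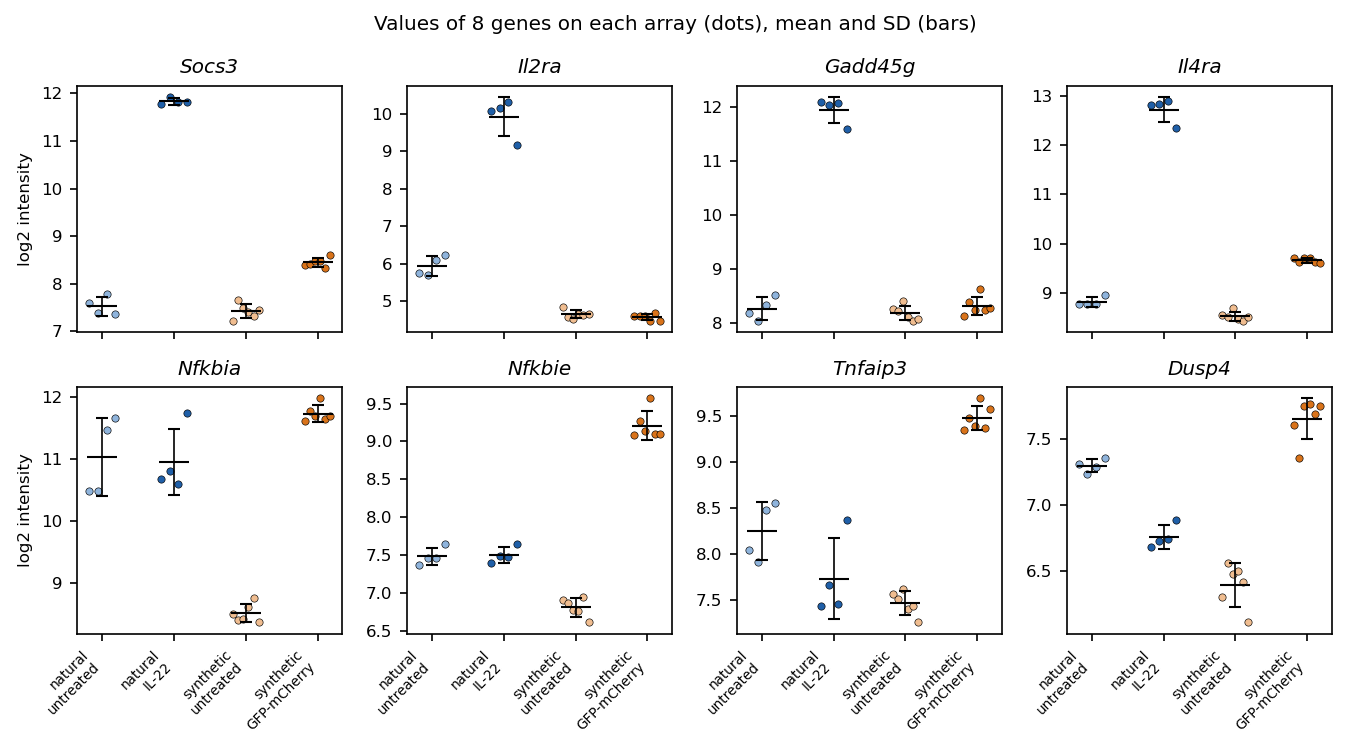
Log2 intensity of 8 genes on each of the 20 arrays, with dots for arrays and bars for the mean and SD of each group (n = 4, 4, 6 and 6). In the upper row the IL-22 arrays stand above the other groups, as for Socs3 at 11.77 to 11.92. In the lower row the GFP-mCherry arrays stand highest for Nfkbie, Tnfaip3 and, except for 1 tied array, Dusp4, while Nfkbia already lies at 10.48 to 11.67 in untreated natural receptor cells.

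Promoter sequence was read for the genes that differed by at least 2-fold, from RefSeq windows of 300 bases, 250 before and 50 after each gene's start, in the build GRCm38.p6. A window was searched on both strands for a STAT motif, TTCNNNGAA, and the kappa B motif of NF-kB, which reads GGG, 2 free bases, TT, 1 free base and CC. Matches of the 2 motifs may overlap, and a gene counted when any of its windows held a match. Windows existed for 100 of the 135 genes at least 2-fold below, of which 21 (21.0%) held the STAT motif and 8 (8.0%) the kappa B motif. For the 58 genes at least 2-fold above, 49 had a window, of which 7 (14.3%) held the STAT motif and 12 (24.5%) the kappa B motif. Among the 15563 measured genes with a window, 9.01% held the STAT motif and 5.76% the kappa B motif, and among all 32851 windows the shares were 8.30% and 4.79%. A match is a run of letters in the window, not a measured binding site.

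The inhibitor gene with the largest difference in each direction is shown with the next gene of each direction whose window held the motif, printed 5′ to 3′ on the gene's strand for the 250 bases before the start, with the motif in capitals. Socs3 (chr11:117969367-117969616, minus strand) holds the STAT match TTCTTAGAA with its first base at -154, and Zfp36 (chr7:28379229-28379478, minus strand) holds TTCTGCGAA at -17. Nfkbia (chr12:55492648-55492897, minus strand) holds the kappa B match GGAAATTCCC at -29, and Tnfaip3 (chr10:19015411-19015660, minus strand) holds GGAAATCCCC at -12.
Socs3: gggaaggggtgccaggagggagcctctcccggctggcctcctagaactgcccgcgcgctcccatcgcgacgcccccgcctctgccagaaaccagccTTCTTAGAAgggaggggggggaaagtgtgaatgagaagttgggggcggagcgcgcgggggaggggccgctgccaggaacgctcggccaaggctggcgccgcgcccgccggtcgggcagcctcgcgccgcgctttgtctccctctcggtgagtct
Zfp36: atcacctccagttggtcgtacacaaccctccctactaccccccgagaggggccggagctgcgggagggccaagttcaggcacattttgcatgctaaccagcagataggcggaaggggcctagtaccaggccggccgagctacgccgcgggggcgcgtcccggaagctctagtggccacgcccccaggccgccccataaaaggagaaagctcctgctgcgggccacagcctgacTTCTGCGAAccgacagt
Nfkbia: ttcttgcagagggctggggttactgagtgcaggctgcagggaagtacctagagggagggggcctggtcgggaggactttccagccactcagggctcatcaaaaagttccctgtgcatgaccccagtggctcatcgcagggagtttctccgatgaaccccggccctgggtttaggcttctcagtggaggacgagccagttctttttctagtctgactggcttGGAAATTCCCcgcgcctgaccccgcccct
Tnfaip3: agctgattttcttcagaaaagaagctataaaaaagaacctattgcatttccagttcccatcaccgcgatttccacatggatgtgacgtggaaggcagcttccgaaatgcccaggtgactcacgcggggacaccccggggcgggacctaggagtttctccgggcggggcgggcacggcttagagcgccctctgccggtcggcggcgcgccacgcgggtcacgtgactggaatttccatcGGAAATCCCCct

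Among 8 measured SOCS genes, 4 were called below and none above, with a median difference of -0.19. Cish, the STAT5-responsive member, rose in both lines, by 2.06 with IL-22 and 1.06 with GFP-mCherry (SE of the difference 0.17, adjusted p = 0.000156). Socs1 (-0.44, adjusted p = 0.0288) and Socs5 (-0.31, adjusted p = 0.0499) passed narrowly, and the call of Socs5 was lost in 16 of 20 fits that left out 1 array. Within high numbers Cish gave -0.49 (adjusted p = 0.104) and Socs1 was not called. Socs2 gave no difference, rising by 0.61 in each line (difference -0.00, 95% interval -0.32 to 0.32). The count of 4 fell to 2 without IL-22 replicate 1 or without untreated natural replicate 5, and to 1 within high numbers, where IL-22 has a single array.

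Of 32 measured STAT3 targets, 21 were called below (65.6%) and 4 above, with a median difference of -0.82. Over all genes 4.40% were below and 9.23% above, with a median of -0.016. Zfp36, which encodes an mRNA decay protein of inflammatory transcripts, rose by 3.35 with IL-22 and 0.60 with GFP-mCherry (difference -2.75, SE 0.19, adjusted p = 5.24e-11). Lbp, the LPS-binding acute phase protein, rose by 2.35 with IL-22 and was -0.14 with GFP-mCherry (difference -2.49, adjusted p = 1.88e-08). Osm, the IL-6 family cytokine oncostatin M, gave -2.45 (adjusted p = 3.93e-11), and Sbno2, a transcriptional co-regulator of the IL-10 response, gave -2.32 (adjusted p = 2.08e-16). The AP-1 member Junb rose by 1.69 and 0.75 (difference -0.94, adjusted p = 0.0011) and the IkB-like Bcl3 by 0.96 and 0.35 (-0.61, adjusted p = 0.00206). Within high numbers Junb gave -0.26 (adjusted p = 0.646) and Bcl3 -0.17 (adjusted p = 0.698). The survival gene Mcl1 gave -0.43 (adjusted p = 0.000216). The 4 members above were Tnfaip3, Pim1, Icam1 and Myc, which is 12.5% of the list, and that count was 1 within low numbers and 1 without untreated natural replicate 5, and leaving out any of 7 other arrays gave 2.

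Stat3 itself rose by 0.98 with IL-22 and was -0.05 with GFP-mCherry (difference -1.03, SE 0.08, adjusted p = 8.04e-10). Its IL-22 arrays held 11.88, 11.89, 11.91 and 11.70 against 10.81, 10.76, 10.91 and 10.98 untreated, without overlap. The synthetic arrays overlapped at 10.88 to 11.12 untreated (median 10.97) and 10.86 to 11.01 with GFP-mCherry (median 10.92). Stat5a gave -1.58 (SE 0.08, adjusted p = 8.83e-15) and Stat2 -1.49 (adjusted p = 2.42e-11), the latter rising by 1.22 with IL-22 and falling by 0.27 with GFP-mCherry.

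Receptor chains, JAKs and STATs were called below for 8 of 27 measured members (29.6%) and above for 3 (11.1%), against 4.40% and 9.23% over all genes. Besides Il2ra, Il4ra and these STAT genes, the list's members below were Csf2rb (-0.87) and Csf2rb2 (-0.98), beta chains of the IL-3 receptor group, and Jak2 (-0.73). Without IL-22 replicate 5 there were 5 above. The 3 above were the interferon-gamma receptor chain Ifngr2 (1.18), the erythropoietin receptor Epor (0.52) and the kinase Tyk2 (0.32, adjusted p = 0.0324). Jak1 gave -0.04 (adjusted p = 0.734) and the gp130 gene Il6st 0.00 (adjusted p = 0.984). The mouse probes for Il6st lay at 4.88 to 5.05 in all 4 groups. Of other receptor genes among the 20 furthest below 0, the chemokine receptor Cxcr2 gave -2.57 (adjusted p = 1.07e-09), the IL-17 receptor chain Il17ra -2.30 (adjusted p = 4.32e-13) and the retinoic acid receptor Rara -1.98 (adjusted p = 8.22e-07). Cxcr2 was 8.03, 8.01, 8.74 and 9.23 in untreated natural and 11.02, 10.93, 11.25 and 11.10 in IL-22-treated cells, and its synthetic arrays overlapped at 6.59 to 7.12 untreated (median 6.84) and 6.70 to 7.03 with GFP-mCherry (median 6.87).

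The IL-10 response list shares Socs3, Il4ra, Zfp36, Sbno2, Bcl3 and other genes with the STAT3 list. It had 13 of 18 members below (72.2%, against 4.40% over all genes) and none above, at a median of -0.73. Without IL-22 replicate 5 there was 1 above. Cytokine and chemokine genes were called below for 8 of 36 (22.2%) and above for 2 (5.56%), against 4.40% and 9.23% over all genes. The TNF family ligands Tnfsf14 (-1.57, adjusted p = 8.12e-09) and Tnfsf9 (-1.47, adjusted p = 1.27e-08) led those below after Osm, and both members above, lymphotoxin beta Ltb (1.80) and the chemokine Ccl3 (0.88), differed between the untreated lines too. Leaving out any of 5 natural receptor arrays (all but IL-22 replicate 5 and untreated replicates 2 and 3) left 1 above. Ltb stood at 10.53 in untreated natural and 8.64 in untreated synthetic receptor cells. Among 21 epithelial IL-22 targets, genes that IL-22 raises in gut and skin, 3 were called below and 1 above. These shares were 14.3% and 4.76%, against 4.40% and 9.23% over all genes. The called members were Lbp, the mucin Muc13 (-0.46), Reg3b (-0.38), whose levels of 3.48 to 3.81 are among the dimmest named here, and haptoglobin Hp (0.90, adjusted p = 7.73e-07). Without IL-22 replicate 5 there were 2 above.

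STAT5 targets moved in both directions, with 7 of 23 below (30.4%) and 5 above (21.7%), against 4.40% and 9.23% over all genes. Those above were Pim2, Spred2, Pim1, the cyclin Ccnd2 and Myc, and the count above was 3 without untreated natural replicate 5. Pim2, a serine kinase that supports survival of cytokine-dependent blood cells, rose by 2.33 with GFP-mCherry and was 0.58 with IL-22, which did not pass the test (difference 1.74, SE 0.27, adjusted p = 3.33e-05). Pim2 changed with IL-22 by 1.00 within low numbers, by 0.48 within high numbers and by 0.81 with the number range as a term. Its untreated natural arrays already held 10.87, 10.98, 11.93 and 12.20, its IL-22 arrays 11.90, 11.97, 11.90 and 12.55, and the synthetic arrays climbed from 7.94 to 8.35 (median 8.17) to 10.31 to 10.82 (median 10.46). All 6 GFP-mCherry arrays thus lay below the lowest untreated natural array.

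Pim1 rose in both lines, by 1.67 with IL-22 and 2.39 with GFP-mCherry. Its difference of 0.72 (SE 0.24, adjusted p = 0.0449) turned to -0.16 within low numbers and was 1.66 within high numbers, so that its direction depended on the replicate range, and the call was lost in 14 of 20 fits that left out 1 array (adjusted p up to 0.134). Untreated natural arrays held 10.04 and 10.03 in replicates 2 and 3 and 10.87 and 11.05 in replicates 4 and 5, while the IL-22 arrays held 12.23, 12.23, 12.11 and 12.08. Myc gave 0.40 (SE 0.11, adjusted p = 0.0162), rising by 0.57 with IL-22 and by 0.97 with GFP-mCherry. It did not pass within low numbers (0.19, adjusted p = 0.242) or without untreated natural replicate 5 (adjusted p = 0.052).

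Inhibitors of NF-kB held the largest positive differences. Nfkbia stood at 8.37 to 8.76 in untreated synthetic receptor cells (median 8.45) and at 11.61 to 11.98 with GFP-mCherry (median 11.69), without overlap. In natural receptor cells it was 10.49, 10.48, 11.47 and 11.67 untreated and 10.67, 10.80, 10.59 and 11.75 with IL-22, which overlap. The GFP-mCherry change of 3.23 and the IL-22 change of -0.07, which did not pass the test, made a difference of 3.30 (SE 0.27, 9.86-fold, adjusted p = 1.07e-09). Within low and high numbers the difference was 3.06 and 3.02, and the IL-22 change was 0.20 and 0.18. The untreated lines differed by -2.52, so GFP-mCherry brought Nfkbia to 0.78 above the IL-22-treated natural cells (adjusted p = 0.00197). The untreated arrays enter both that line difference and the response difference.

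Tnfaip3, the ubiquitin-editing enzyme A20 that shuts off NF-kB signalling, fell by 0.51 with IL-22 and rose by 2.01 with GFP-mCherry (difference 2.52, SE 0.19, adjusted p = 2.55e-10). Its untreated natural arrays held 8.04, 7.92, 8.48 and 8.55 and its IL-22 arrays 7.44, 7.67, 7.46 and 8.37, which overlap through replicate 5. The untreated synthetic arrays held 7.26 to 7.62 (median 7.47), and all 6 GFP-mCherry arrays, at 9.35 to 9.69 (median 9.44), lay above every other array of the comparison.

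Nfkbie, encoding IkBε, gave 2.38 (SE 0.12, adjusted p = 4.62e-14) and was flat in natural receptor cells, with 7.37, 7.46, 7.46 and 7.64 untreated and 7.39, 7.49, 7.47 and 7.65 with IL-22. It rose in synthetic receptor cells from 6.61 to 6.95 (median 6.82) to 9.08 to 9.57 (median 9.12). Nfkbiz, the nuclear IkBζ, gave 1.99 (SE 0.20, adjusted p = 2.25e-08). Zc3h12a, a ribonuclease that degrades inflammatory mRNAs, rose in both lines, by 0.82 and 2.20 (difference 1.38, SE 0.13, adjusted p = 1.51e-08).

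In all, 8 of 14 measured inhibitors were called above (57.1%) and 4 below (28.6%), at a median difference of 0.72. Over all genes these shares were 9.23% and 4.40%. The other members above were the A20 partner Tnip1 (1.14), the IkB-like Nfkbid (1.02) and the deubiquitinase Otud7b (0.42). Those below were Tnip3 (-0.85), Bcl3, N4bp1 (-0.60) and Tnip2 (-0.57), and within high numbers none of these 4 was called. The beta IkB gene Nfkbib rose in both lines with a difference of 0.16 (95% interval -0.04 to 0.37). In the separate responses GFP-mCherry raised 12 of the 14 inhibitors and lowered none, and IL-22 raised 7 and lowered 2.

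Subunits and kinases of NF-kB moved less. Of 12 measured, 3 were above, namely Nfkb2 (0.59, adjusted p = 4.48e-05), the adaptor Traf2 (0.38) and the ubiquitin ligase Birc3 (0.32), and 2 were below, Rel (-0.50) and Rela (-0.49, not called within high numbers). The count above was 1 without untreated natural replicate 3, and the count below was 1 without any of 8 arrays. Of 23 measured NF-kB targets, a list that shares Nfkbib with the inhibitor list, 2 were called above and 2 below (8.70% each, against 9.23% and 4.40% over all genes). In the separate responses each ligand raised 12 of the 23, and GFP-mCherry lowered 2 and IL-22 none. Gpr84, a fatty acid receptor of myeloid cells, gave 1.92 (SE 0.18, adjusted p = 9.07e-09) and the adhesion gene Icam1 0.42 (adjusted p = 0.0351). Those below were Stx11 (-0.41) and Vcam1 (-0.30). Leaving out 1 array gave 0 to 3 below and 1 to 2 above, and Icam1, Stx11 and Vcam1 each lost the call in at least 8 of 20 such fits. Gpr84 rose in both lines, from 8.14, 8.38, 7.88 and 8.01 to 8.96, 8.84, 8.79 and 8.16 in natural receptor cells, where the groups overlap, and from 6.03 to 6.44 (median 6.17) to 8.60 to 8.97 (median 8.69) in synthetic ones. Nfkb1 is not analysed here.

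**Figure D3:**
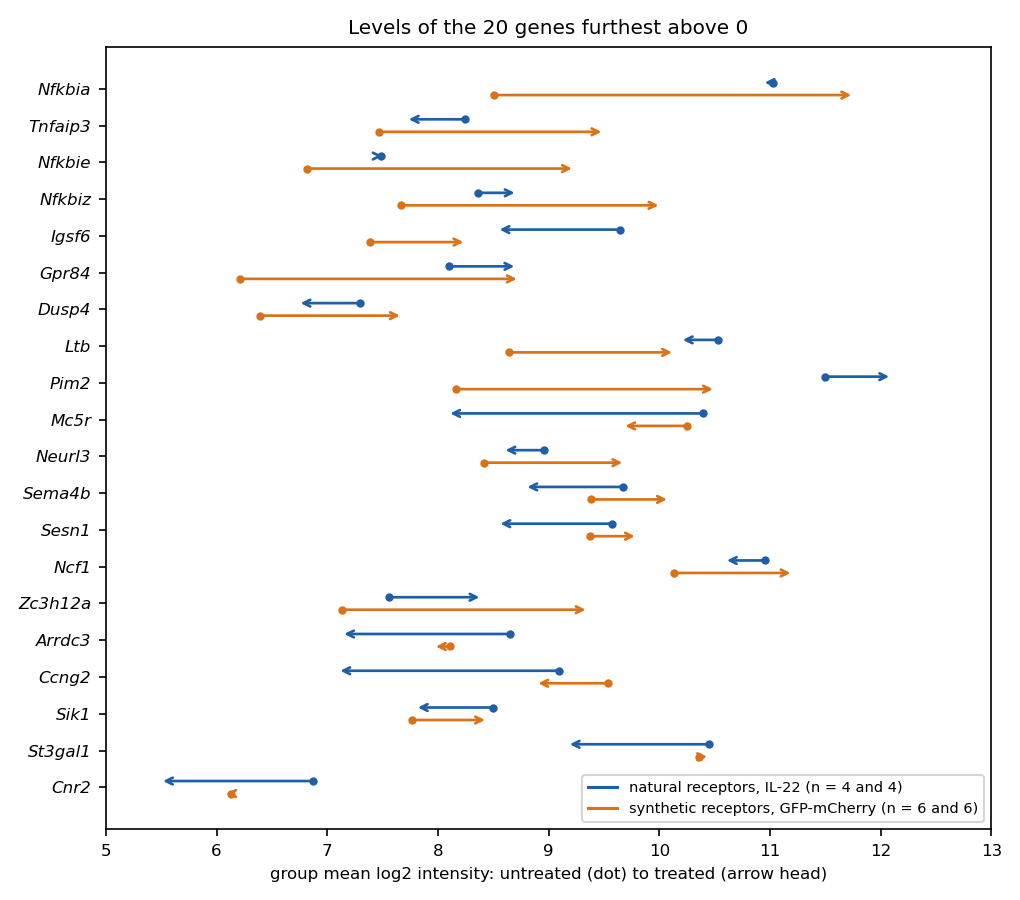
Group mean log2 intensity of the 20 genes furthest above 0, from untreated (dot) to treated (arrow head), in natural receptor cells with IL-22 (blue, n = 4 and 4) and synthetic receptor cells with GFP-mCherry (orange, n = 6 and 6). Several orange arrows start far below the blue dot, as for Nfkbia (8.51 against 11.03), Pim2 (8.16 against 11.49) and Gpr84 (6.21 against 8.10), and Mc5r, Arrdc3 and Ccng2 are separated by longer blue arrows toward lower values.

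Untreated levels differed between the lines for many of these genes. Of the 58 genes at least 2-fold above, 28 were lower and 5 higher in untreated synthetic than in untreated natural receptor cells (limma, adjusted p below 0.05). Under treatment, 49 were higher and 3 lower. Of the 135 genes at least 2-fold below, 36 were lower and 8 higher untreated, and 134 were lower and none higher under treatment. Over all 19938 genes the counts were 1319 lower and 1715 higher untreated, and 2914 lower and 4431 higher under treatment. These line differences share arrays with the contrast and are given as description. Whether the starting level set the size of a response was not tested.

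Toll-like receptor and LPS co-receptor genes were called below for 5 of 19 (26.3%) and above for 1 (5.26%), against 4.40% and 9.23% over all genes. The adaptor Myd88, which links Toll-like and IL-1 receptors to NF-kB, rose by 2.25 with IL-22 and 0.51 with GFP-mCherry (difference -1.74, SE 0.24, adjusted p = 7.93e-06). Tlr6 gave -1.52 (adjusted p = 1.47e-07), the adaptor Tirap -0.96, Tlr2 -0.54 and Ticam1 -0.34, and the kinase Irak2 gave 0.66 (adjusted p = 0.000728). Leaving out any of 5 arrays gave 2 above.

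Feedback genes of ERK signalling were called above for 5 of 15 (33.3%) and below for 2 (13.3%), against 9.23% and 4.40% over all genes. Dusp4, a nuclear phosphatase of ERK, fell by 0.54 with IL-22 and rose by 1.26 with GFP-mCherry (difference 1.80, SE 0.14, adjusted p = 4.60e-10). Its natural arrays held 7.31, 7.24, 7.29 and 7.36 untreated and 6.68, 6.73, 6.74 and 6.89 with IL-22, and its synthetic arrays ran from 6.11 to 6.56 untreated (median 6.45) and from 7.36 to 7.77 with GFP-mCherry (median 7.72). Treated and untreated arrays did not overlap in either line and moved in opposite directions. By group mean the cytoplasmic ERK phosphatase Dusp6 also fell by 0.33 with IL-22 and rose by 0.86 with GFP-mCherry (difference 1.19, adjusted p = 3.85e-07). Its natural arrays overlapped, however, at 9.62 to 10.20 untreated and 9.44 to 9.73 with IL-22. Within low numbers its IL-22 change was only -0.06.

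The ERK-induced transcription factor Etv5 (1.18, adjusted p = 2.44e-06), the RAF inhibitor Spred2 (0.85, adjusted p = 9.06e-07) and the RAS GTPase activator Rasa2 (0.39) completed the members above. The Sprouty genes Spry2 (-0.45) and Spry4 (-0.65) were below. Immediate early and AP-1 genes were called below for 6 of 26 (23.1%, against 4.40% over all genes) and above for none, at a median of -0.19. Egr2 gave -2.21 (adjusted p = 1.54e-08) and Fosl2 -1.09 (adjusted p = 7.00e-06), whereas Egr1 did not change detectably in either line (difference 0.18, adjusted p = 0.52). Within high numbers Fosl2 gave -0.69 (adjusted p = 0.0702). The AP-1 count was 14 within low numbers and 3 within high numbers.

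FOXO and quiescence genes, which starved cells express and growth signals lower, were called above for 6 of 28 and below for 3. These shares were 21.4% and 10.7%, against 9.23% and 4.40% over all genes. Both ligands lowered many of the 28: IL-22 lowered 13 and raised 2, and GFP-mCherry lowered 10 and raised 1. Cdkn1b, the p27 cell cycle inhibitor, fell by 1.29 with IL-22 and was -0.10 with GFP-mCherry (difference 1.18, SE 0.20, adjusted p = 0.000157). Its IL-22 arrays held 7.69, 7.92, 7.80 and 8.99 against 9.25, 9.23, 9.40 and 9.67 untreated, so replicate 5 lay nearest to the untreated arrays, and within high numbers the difference was 0.45 (adjusted p = 0.102). Synthetic arrays overlapped at 9.51 to 9.71 untreated (median 9.58) and 9.45 to 9.58 with GFP-mCherry (median 9.49). Sesn1, a stress sensor that restrains mTORC1, fell by 1.01 with IL-22 and rose by 0.40 with GFP-mCherry (difference 1.41, adjusted p = 4.73e-09). The arrestin-related Arrdc3 gave 1.36 (adjusted p = 0.000822).

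Ccng2, encoding a cyclin that accompanies cell cycle arrest, gave 1.34 (SE 0.42, adjusted p = 0.0312), but IL-22 replicate 5 held 8.97 where the other IL-22 arrays held 6.56, 6.60 and 6.35. Its difference was 1.45 within low numbers and -0.00 within high numbers. Mc5r, a melanocortin receptor gene, fell in both lines, by 2.28 and 0.56 (difference 1.72, adjusted p = 2.07e-07). Igsf6, an immunoglobulin superfamily gene with a difference of 1.93, had an SE of 0.59, no called change in either line alone, and no call in 5 of 20 fits that left out 1 array. The FOXO count above fell to 3 without IL-22 replicate 1, IL-22 replicate 2 or untreated natural replicate 5, and to 2 within high numbers.

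Growth machinery showed small positive differences. Of 29 oxidative phosphorylation genes, 16 were above (55.2%, against 9.23% over all genes) and none below, at a median of 0.26. None of the 29 changed with IL-22 at the threshold, and 22 rose with GFP-mCherry. Cox5a, a subunit of cytochrome c oxidase, held 9.30, 9.41, 9.32 and 9.34 untreated and 9.48, 9.32, 9.45 and 9.49 with IL-22, which overlap, and rose from 9.29 to 9.57 (median 9.45) to 10.06 to 10.25 (median 10.16) with GFP-mCherry. Its difference was 0.63 (SE 0.09, adjusted p = 9.36e-06). Uqcrq, a subunit of complex III, gave 0.71 (adjusted p = 4.17e-05), and the cytochrome c oxidase subunits Cox8a and Cox5b gave 0.54 and 0.51.

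Cytosolic ribosomal proteins were called above for 7 of 22 (31.8%, against 9.23% over all genes) and below for none, led by Rplp1 (0.57, adjusted p = 7.16e-05). Probes of this family can also bind transcripts of near-identical copies. In the ribosome biogenesis list 5 of 35 were above, namely Nop56 (0.41), Bop1 (0.31), Nop16, Nhp2 (0.27) and Pes1 (0.24), although 28 rose with GFP-mCherry and 17 with IL-22. That share was 14.3% against 9.23% over all genes, and the count was 1 without untreated natural replicate 3 and 2 to 3 without any of 8 other arrays, and without IL-22 replicate 5 there were 3 below. Without IL-22 replicate 1 or untreated natural replicate 5 the ribosomal protein count was 4. Within high numbers the counts above were 5 for oxidative phosphorylation and 3 for ribosomal proteins.

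Genes of entry into DNA replication were the other growth list on the positive side. Of 29 G1/S genes, 12 were above (41.4%, against 9.23% over all genes) and none below (median 0.26). Of the 29, 10 fell and 1 rose with IL-22, and 9 rose and 2 fell with GFP-mCherry. The replication licensing factor Cdc6 fell by 0.37 and rose by 0.22 (difference 0.58, adjusted p = 0.00203), but gave -0.01 within high numbers, where only 2 of the 29 were called above. Cdca7, a MYC and E2F target, gave 0.57 (adjusted p = 9.97e-06) and the replicative helicase subunit Mcm5 0.41 (adjusted p = 0.000713; 0.0502 within high numbers).

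Of 23 G2/M genes 5 were above and 1 below (21.7% and 4.35%, against 9.23% and 4.40% over all genes). Cyclin F, Ccnf, led those above (0.93, adjusted p = 5.75e-09). In the separate responses GFP-mCherry lowered 9 of the 23 and raised 3, and IL-22 lowered 8 and raised none. Leaving out 1 array at a time gave 1 to 6 above, with 7 arrays lowering the count to 3 or fewer and untreated natural replicate 2 giving 1, and 16 of the 20 arrays removed the single gene below, Mki67. In the MYC network, 4 of 12 were above (33.3%) and 2 below (16.7%). Those above were Myc, the MYC antagonists Mxd4 (0.59) and Mxi1 (0.50) and the MLX partner Mlxip (0.25). The members below were Mycn (-0.99) and Mlx (-0.27). Within high numbers, with 1 IL-22 array, Myc gave 0.54, Mxd4 0.27, Mxi1 0.25 and Mycn -0.42. After another quantile normalization Mxi1 did not pass limma's test (adjusted p = 0.0733). Without IL-22 replicate 3 there were 2 above. The death regulators Bcl2 (0.50), Bcl2l11 (0.32) and Bid (0.28) were above and Mcl1 below among 14 BCL2 family genes. These shares were 21.4% and 7.14%, against 9.23% and 4.40% over all genes. Leaving out any of 8 arrays gave 2 below, and Bcl2l11 lost its call in 4 of 20 such fits. Within high numbers, which hold 1 IL-22 array, Bcl2 gave 0.14, Bcl2l11 0.36, Bid 0.26 and Mcl1 -0.49.

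**Figure D4:**
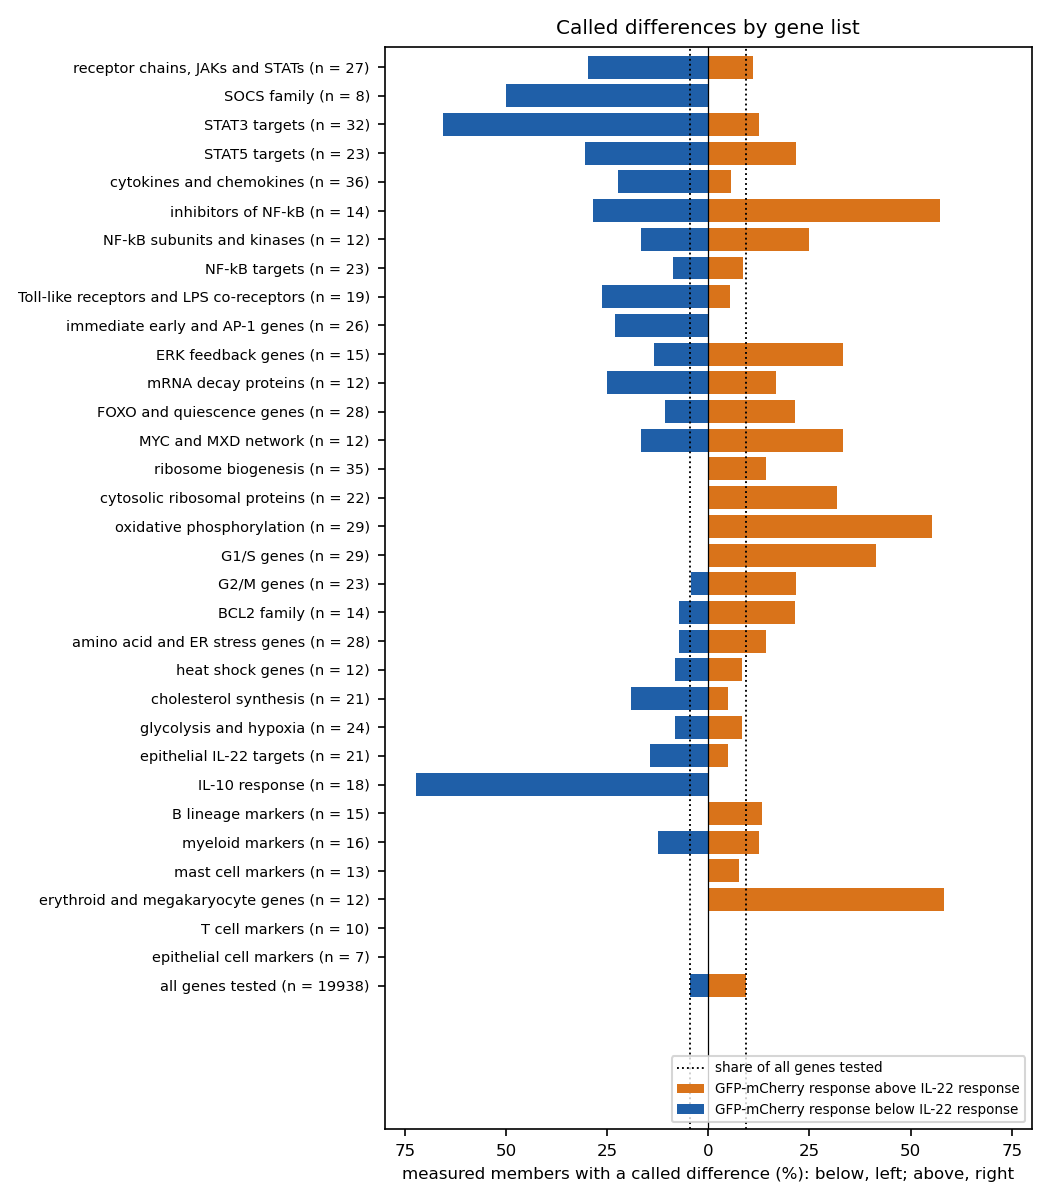
Share of each list's measured members with a called difference, below 0 to the left (blue) and above 0 to the right (orange), in percent. The dotted lines mark 4.40% and 9.23%, the shares over all 19938 genes. The IL-10 response (13 of 18) and STAT3 target (21 of 32) lists reach furthest left, and erythroid and megakaryocyte genes (7 of 12), inhibitors of NF-kB (8 of 14) and oxidative phosphorylation (16 of 29) furthest right.

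Erythroid and megakaryocyte regulators were called above for 7 of 12 (58.3%, against 9.23% over all genes) and below for none, at a median of 0.51. Gfi1b, a repressor that both lineages need, fell by 1.49 with IL-22 and by 0.26 with GFP-mCherry (difference 1.22, SE 0.12, adjusted p = 1.20e-08). The globin gene activators Nfe2 (0.98, adjusted p = 1.76e-05) and Klf1 (0.72, adjusted p = 4.17e-06) and the transferrin receptor Tfrc (0.76, adjusted p = 9.36e-06) followed. Klf1 held 8.35, 8.47, 8.25 and 8.33 untreated and 7.21, 7.26, 7.04 and 7.40 with IL-22, without overlap, and its synthetic arrays fell from 8.83 to 9.00 (median 8.92) to 8.36 to 8.63 (median 8.54). Gata2, a factor of early blood and mast cells, fell by 1.04 with IL-22 and was 0.04 with GFP-mCherry (difference 1.08, SE 0.15, adjusted p = 6.08e-06). Its 4 untreated natural arrays lay between 12.26 and 12.30, and IL-22 replicate 5 at 11.90 against 11.11, 10.96 and 11.06 in the others. Gata1 gave 0.07 (adjusted p = 0.727). Within high numbers the erythroid count was 4 and Klf1 gave 0.46 (adjusted p = 0.0502).

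Other lineages moved little. B lineage markers were above for 2 of 15, Tcf3 (0.42) and Cd79b (0.37), and below for none. That share was 13.3%, near the 9.23% over all genes. Within high numbers, with 1 IL-22 array, Tcf3 gave 0.40 and Cd79b 0.23. Of 16 myeloid markers 2 were above, Cebpa (1.15, adjusted p = 4.32e-08) and Cebpe (0.43). Another 2 were below, the Fc receptor Fcgr1 (-0.61) and the GM-CSF receptor chain Csf2ra (-0.49). Each myeloid share was 12.5%, against 9.23% above and 4.40% below over all genes. Leaving out 1 array gave 1 to 3 in each direction. Of 13 mast cell markers Gata2 was above, and of 10 T cell and 7 epithelial markers none was called in either direction. Leaving out any of 6 arrays gave 1 mast cell gene below, and leaving out untreated natural replicate 4 gave 1 epithelial gene below. Itgam, whose level separates the lines, gave 0.57 with a 95% interval of -1.04 to 2.17 (adjusted p = 0.702). In RNA from whole cultures, fewer cells of a type and less RNA per cell cannot be told apart.

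Counts in the remaining lists were small. Of 12 mRNA decay genes, 3 (25%, against 4.40% over all genes) were below, Zfp36, Zfp36l1 (-1.53, adjusted p = 1.82e-09) and Cnot3 (-0.29), and 2 above, Zc3h12a and Zc3h12c (0.48). Cholesterol synthesis had 4 of 21 below, or 19.0% (Cyp51 -0.77, Sc5d -0.53, Msmo1 -0.48 and Hmgcs1 -0.35) and Tm7sf2 above (0.32). Without IL-22 replicate 5 there were 7 below. Amino acid and ER stress genes had 4 of 28 above (Creld2 0.45, Sdf2l1 0.43, Edem1 0.35 and Slc3a2 0.22) and 2 below (Nupr1 -1.02 and Xbp1 -0.51). These shares were 14.3% and 7.14%, against 9.23% and 4.40% over all genes. There were 2 to 5 above and 2 to 6 below when 1 array was left out. Heat shock genes had Hspe1 above (0.43) and Dnajb1 below (-1.04, adjusted p = 8.04e-10) of 12, or 8.33% each. Leaving out any of 4 arrays gave 2 heat shock genes above. Within high numbers, with 1 IL-22 array, Creld2 gave 0.45, Sdf2l1 0.40, Nupr1 -1.70, Xbp1 -0.555, Hspe1 0.29 and Dnajb1 -0.85. Glycolysis and hypoxia genes had Pgam1 (0.58) and Car9 (0.49) above and Slc2a1 (-1.03) and Pfkfb3 (-0.51) below of 24. Each share was 8.33%, against 9.23% above and 4.40% below over all genes. Within high numbers, with 1 IL-22 array, Pgam1 gave 0.62, Car9 0.45, Slc2a1 -0.58 and Pfkfb3 -0.001. Pgam1 did not pass limma's test within low numbers (0.25, adjusted p = 0.114). It lost its call in 7 of 20 fits that left out 1 array. The count above was 7 without IL-22 replicate 5 and 1 without any of 7 other arrays.

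Responses of like size in both systems were also counted. Both ligands raised 331 genes without a called difference, and for 286 of them the 95% interval of the difference lay within 1.5-fold either way. Both lowered 229 such genes, 211 of them within that interval. Over all genes, 17220 had no called difference and 15541 of these lay within 1.5-fold. Examples chosen after their values were seen are the interferon regulatory factor Irf1, which rose by 0.85 with IL-22 and 0.93 with GFP-mCherry (difference 0.08, 95% interval -0.19 to 0.35), the ribosome biogenesis gene Rrp1b (0.95 and 0.96) and the transcription factor Klf6, which fell by 0.67 and 0.64. Tnf, the inflammatory cytokine and NF-kB target, rose by 1.85 and 1.96, but its interval of -0.45 to 0.67 is wider than 1.5-fold.

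The GFP-mCherry changes of some genes had a counterpart in synthetic receptor cells given mCherry-Fc, which share their untreated arrays with the contrast. There Nfkbia changed by 0.07, Tnfaip3 by -0.02 and Nfkbiz by 0.29, none past the test, and Nfkbie rose by 0.51. By comparison, Dusp4 rose by 1.58, Dusp6 by 1.64, Etv5 by 1.51, Pim2 by 1.84, Myc by 1.40, Cox5a by 0.67 and Socs3 by 0.94. The values stand side by side without a test of their difference here.

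**Figure D5:**
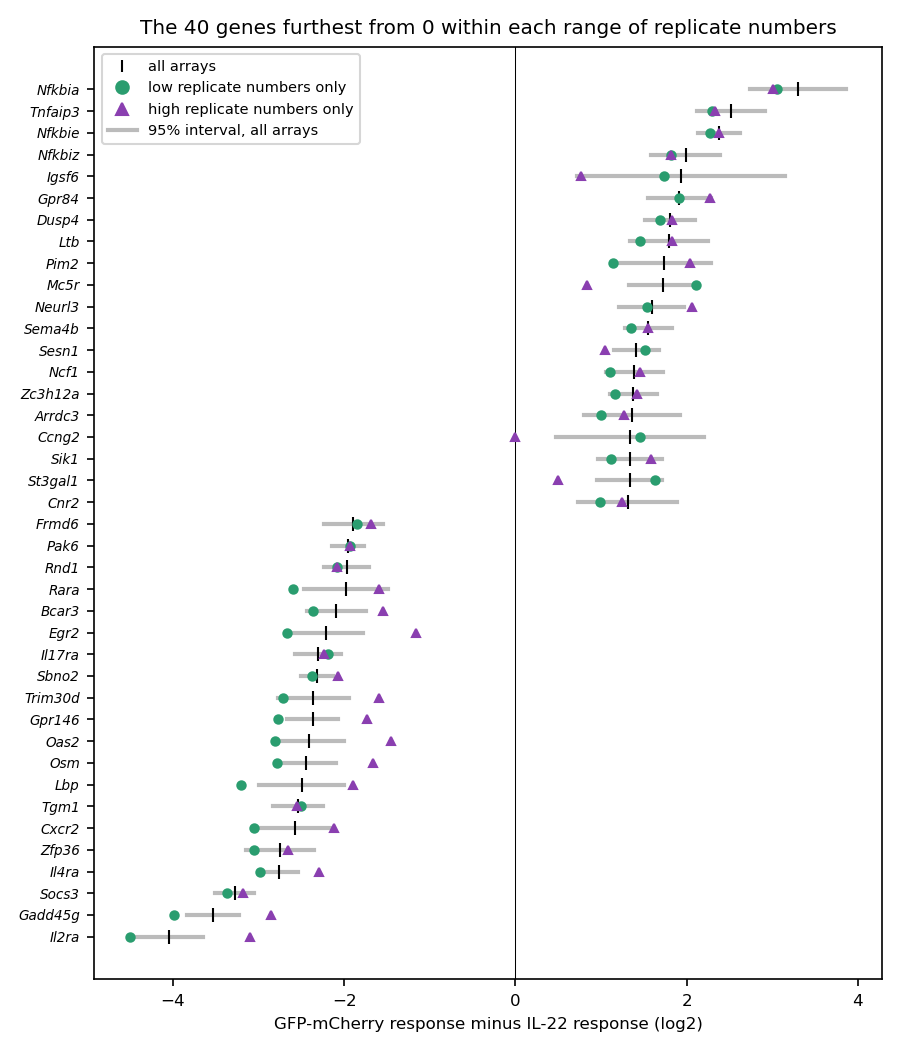
Difference between the GFP-mCherry and IL-22 responses (log2) of the 20 genes furthest above and the 20 furthest below 0, from all arrays (black tick, grey 95% interval) and from low (green circle) or high (purple triangle) replicate numbers only. The high range rests on 1 IL-22 array. Socs3 (-3.36 and -3.19), Nfkbie (2.28 and 2.38) and Nfkbia (3.06 and 3.02) differ little between ranges, whereas Egr2 (-2.67 and -1.16), Mc5r (2.11 and 0.84) and Ccng2 (1.45 and -0.00) differ more.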

How the data were processed

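RNA of 26 samples was measured on Affymetrix Mouse Gene arrays. Each probe set has a deposited log2 intensity, which the submitters' processing notes credit to Affymetrix Expression Console 4.0. Algorithm, background correction and genome build are not given in the sources used here. Values spanned 1.79 to 14.31, with array medians of 6.06 to 6.28 and within-group correlations of 0.981 to 0.994, and the number of arrays limits the precision. No 2 arrays held identical values.

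Of 35556 probe sets, 21789 had 1 gene symbol, 1621 several (left out) and 12146 none (tested apart). Symbols were updated by Entrez identifier for 21698. Where a gene had more than 1 probe set (999 genes), its brightest on average was used, which left 19938 genes.

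All 26 arrays in 5 groups entered 1 linear model (R 4.3.3, limma 3.58.1, lmFit and eBayes, two-sided), so that groups shared 1 estimate of the spread. P-values were adjusted by Benjamini-Hochberg over all genes, with a threshold of 0.05. Intervals are 95%. The script was tested on simulated data. Promoters come from RefSeq (GRCm38.p6), matched by gene identifier for 15563 genes.

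The comparison, the 32 gene lists and the other choices were made with earlier results of these data known. Named genes are the 20 furthest above and the 20 furthest below 0 among the calls, up to 4 called genes a list taken by lowest p, and a set of pathway genes (Socs3, Cish, Socs1, Socs2, Pim1, Pim2, Bcl3, Junb, Stat3, Stat5a, Myc, Egr1, Nfkbia, Il10rb, Il22ra1 and Il6st), leaving out predicted loci, small RNA, olfactory and receptor segment genes from the 20s. Other genes were named to spell out a small count or beside a result, after their values were seen. Replicate numbers recur across groups. The numbers were not taken as pairs. Alternatives were another quantile normalization, median centring, mean probe sets, filters on dim genes, a trended prior, array weights, fewer groups, a minimum of 1.5-fold, replicate blocks, replicate ranges and leaving out each array.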

Additional observations from a re-analysis of the deposited data

Results flagged for a closer look

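The count of 2718 genes whose GFP-mCherry and IL-22 responses differed is listed because the difference between the 2 responses was itself tested, as the interaction term of the limma model.

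Single arrays were compared with the other arrays of their group for 134 named genes in 4 groups. Of 536 such sets, 40 (7.46%) held an array whose gap to its neighbour took up most of the group's range. The gap had to pass Dixon's 95% critical value, which chance passes in about 1 in 20 independent sets, whereas these sets share arrays. All values are log2 intensities.

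IL-22 replicate 5 was the outlying array in 22 of the 40. It lay nearest to the untreated arrays for genes that rose with IL-22, at 11.59 for Gadd45g, 12.34 for Il4ra, 10.89 for Sbno2, 9.68 for Osm, 8.14 for Egr2, 8.79 for Oas2, 11.70 for Stat3, 10.14 for Rela, 10.36 for Mycn and 7.91 for Pfkfb3. The same held for genes that fell, at 8.97 for Ccng2, 11.90 for Gata2, 10.11 for Nfe2, 9.24 for Mxi1 and 10.00 for St3gal1. Slc2a1 rose with IL-22 and was higher on this array than on the other IL-22 arrays, at 12.81. For 4 genes with no called IL-22 change, it lay above the other IL-22 arrays, at 10.60 for Igsf6, 10.67 for Ltb, 9.20 for Nfkbiz and 12.55 for Pim2. It lay below the other IL-22 arrays for Il22ra1 at 12.07 and Sc5d at 9.47. Whether this array was handled differently is not given in the sources used here.

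GFP-mCherry replicate 12 was the outlying array 7 times, at 9.44 for Bop1, 6.14 for Il22ra1, 10.27 for Nfkbiz, 7.02 for Rnd1, 11.78 for Rpl38, 9.98 for Sesn1 and 5.12 for Trim30d. GFP-mCherry replicate 11 stood apart at 10.99 for Ccnd2 and 8.97 for Gpr84, and GFP-mCherry replicate 13 at 9.14 for Birc3. In untreated natural receptor cells, replicate 5 stood apart at 8.96 for Il4ra, 7.80 for Pfkfb3 and 9.71 for Sesn1, replicate 3 at 12.26 for Gata2, and replicate 2 at 11.50 for Xbp1. The last 3 outlying values were IL-22 replicate 1 at 8.24 for Csf2ra, untreated synthetic replicate 11 at 9.05 for Bop1, and untreated synthetic replicate 14 at 8.52 for Dusp6.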

How the results depend on the processing

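The counts of 2718 called genes, 1840 above, 878 below and 193 at least 2-fold apart stayed within 1.5 times under another quantile normalization, median centring, mean probe sets, both filters on dim genes, the trended prior, array weights and the fit of 4 groups. A required minimum of 1.5-fold left 134 genes, 39 above and 95 below. Within low replicate numbers 4583 were called (3086 above, 1497 below), and within high numbers 916 (453 above, 463 below), where the spread of IL-22, with 1 array, was borrowed from the rest and 47 of the 2718 genes took the opposite sign. With the number range as a term 4153 were called, 1394 of them below. Same-numbered treated and untreated arrays deviated together at r of 0.313 to 0.621 in natural and -0.146 to 0.417 in synthetic receptor cells, and not every array correlated best with its own number, so the numbers were not taken as pairs. As a fixed replicate block they gave 3071 calls, and as a random block 3967, with 1431 below. The fixed block kept 2356 of the original calls with the same sign, and the random block all 2718; 10 named genes lost their call under the fixed block. Leaving out 1 array gave 2136 to 3438 called, 1441 to 2289 above, 695 to 1149 below and 172 to 249 at least 2-fold apart.

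Among single genes, Pim1 changed sign to -0.16 within low numbers, and Ccng2 to -0.0009 and Cdc6 to -0.013 within high numbers. Calls were lost for 43 other named genes within high numbers and 11 within low numbers. The cause was not tested. Of the named genes, 24 lost their call in some fit without 1 array, 10 of them in more than 5 of the 20 fits. The arrays' number and signals near the dim end, as for Reg3b, limit what can be called.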

Other observations

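Several genes among the 20 furthest from 0 in each direction have not been described yet. Below 0, Tgm1, a transglutaminase gene, stood at 7.87 to 8.31 on the untreated natural arrays (n = 4) and at 10.91 to 11.00 with IL-22 (n = 4). Its synthetic receptor arrays ran from 7.68 to 8.22 untreated (n = 6) and from 8.19 to 8.53 with GFP-mCherry (n = 6), which overlap slightly. The difference was -2.54 (SE 0.14, adjusted p = 3.15e-13 in limma's test). The orphan receptor gene Gpr146 (-2.37), the adaptor gene Bcar3 (-2.09), the kinase gene Pak6 (-1.96) and Frmd6 (-1.89) also rose by more with IL-22, and of these only Pak6 rose with GFP-mCherry at the threshold.

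Above 0, Neurl3, a ubiquitin ligase gene, rose by 1.25 with GFP-mCherry without a called IL-22 change (difference 1.59, adjusted p = 4.77e-07). Ncf1, which encodes an NADPH oxidase subunit of phagocytes, rose by 1.05 with GFP-mCherry (difference 1.39, adjusted p = 5.06e-07), from 9.93 to 10.38 untreated to 11.01 to 11.52 treated. The semaphorin gene Sema4b (1.56) and the kinase gene Sik1 (1.34) fell with IL-22 and rose with GFP-mCherry. The cannabinoid receptor gene Cnr2 (1.31) and the sialyltransferase gene St3gal1 (1.33) fell with IL-22 alone among the calls. The 2 probe sets of St3gal1 disagreed, the dimmer one giving 0.05.

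Probe sets with no gene name were tested apart from the genes. Of 12146, 246 (2.03%) differed between the 2 responses at the same threshold in limma's test, 108 above and 138 below, against 13.6% of named genes.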
